A study of Mus musculus with 3 samples.

Results

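The SOX transcription factor genes *Sox9*, *Sox8*, *Sox5*, *Sox6*, *Sox4* and *Sox11* were followed in the stromal cells of subcutaneous Matrigel implants that model heterotopic ossification. They were picked by symbol and are 6 of the 31053 genes in the count files and 6 of the 20 genes named *Sox* with a number or *Sry*. A cell was taken as stromal when *Col1a1*, *Col1a2*, *Col3a1*, *Dcn* and *Lum* together gave at least 1% of its unique molecular identifiers (UMIs, each 1 counted RNA molecule). Of 21503 cells in all, 4642 were stromal.

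All masses came from female CD-1 mice of 6 to 8 weeks and were harvested on day 5. Matrigel-only implants held no recombinant human BMP2 (rhBMP2), and their hosts were given no agent by mouth. Vehicle implants held rhBMP2, the bone morphogenetic protein that starts ectopic cartilage and bone, and their hosts received the corn oil/DMSO carrier. Palo implants held rhBMP2, and their hosts received palovarotene, an agonist of retinoic acid receptor gamma, at 4 mg/kg. Each group was 1 single-cell library of dissociated masses, so there is no replicate check between conditions. No p-value is given, and the intervals are 95% intervals that cover counting error only. Where a set of cells had 0 UMIs of a gene, a floor of 3 UMIs over that set was also used to bound a level or fold. The 3 comparisons share libraries and are not independent of each other.

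SOX proteins bind DNA through a high mobility group (HMG) box and fall into groups by its sequence. In the growth plate, SOX9 (group E) is required for mesenchymal cells to become chondrocytes, and SOX5 and SOX6 (group D), which lack an activation domain of their own, help it to drive cartilage matrix genes such as *Col2a1* and *Acan*. SOX8 is the close relative of SOX9. SOX4 and SOX11 (group C) are known for promoting survival and growth of mesenchymal and neural progenitors.

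The grouping is visible in the HMG box coding sequence, which is shown because the pairs it defines order the results. The lines give the same 90 bases of each gene's box from the GENCODE vM21 transcripts of mm10, with capitals for the longest unbroken run of codons, 10 in all, whose encoded residues all 6 genes share.
Sox9: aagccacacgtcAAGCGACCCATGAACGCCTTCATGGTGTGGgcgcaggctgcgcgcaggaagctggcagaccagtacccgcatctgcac
Sox8: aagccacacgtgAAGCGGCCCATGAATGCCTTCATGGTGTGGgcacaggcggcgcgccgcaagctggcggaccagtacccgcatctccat
Sox5: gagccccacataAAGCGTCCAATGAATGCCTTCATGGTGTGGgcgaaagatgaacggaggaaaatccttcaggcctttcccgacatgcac
Sox6: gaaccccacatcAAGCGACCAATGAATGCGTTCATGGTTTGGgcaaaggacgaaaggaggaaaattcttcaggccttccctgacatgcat
Sox4: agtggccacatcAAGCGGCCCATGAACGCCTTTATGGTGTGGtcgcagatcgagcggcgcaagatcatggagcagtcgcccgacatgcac
Sox11: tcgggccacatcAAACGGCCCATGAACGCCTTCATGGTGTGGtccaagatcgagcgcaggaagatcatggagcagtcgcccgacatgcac
Over 79 codons of the box, the 3 pairs within a group shared 82.7 to 88.2% of bases and 93.7 to 98.7% of encoded residues. The 12 pairs across groups shared 53.2 to 71.7% of bases and 48.1 to 60.8% of residues.

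In mm10, *Sox9* lies at chr11:112782224-112787760 on the plus strand. The other members are on the minus strand, *Sox8* at chr17:25565892-25570686, *Sox5* at chr6:143828425-144781977, *Sox6* at chr7:115470872-116038796, *Sox4* at chr13:28948919-28953713 and *Sox11* at chr12:27334264-27342574. The printed stretch falls in the first exon of the *Sox9* and *Sox8* transcripts, which have 3 exons each, in exon 13 of 15 of *Sox5*, in exon 14 of 16 of *Sox6* and in the only exon of *Sox4* and *Sox11*.

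The stromal label was checked on 5 stromal markers that the rule did not use, *Pdgfra*, *Prrx1*, *Postn*, *Col5a1* and *Fbn1*. Each was found in at least 59.4% of stromal cells of every library, at 89.2 to 3823 CPM (UMIs scaled to 1000000 UMIs of the cells in question), against 1.0 to 51.1 CPM in cells defined by macrophage markers. The 10 macrophage markers summed to 335 to 1013 CPM in stroma. Of 6 Schwann cell markers, *Sox10* was at 0 in all libraries. The list summed to 10.7, 24.2 and 5.37 CPM in Matrigel-only, Vehicle and Palo, and in Vehicle 5 had a UMI, the highest at 21.3 CPM. Pericyte and smooth muscle markers summed to 52.6, 35.3 and 40.2 CPM and keratinocyte markers to 30.2, 17.3 and 30.2 CPM, in the same order. Endothelial markers summed to 3.65 to 18.8 CPM and T and NK cell markers to 2.89, 34.8 and 5.31 CPM in Matrigel-only, Vehicle and Palo, and the part of these cells in the levels below was not tested. Chondrocyte markers summed to 3.84, 4117 and 5.87 CPM, so stroma of Vehicle was rich in cartilage matrix transcripts and stroma of the other libraries held few. Only 2 Matrigel-only and 4 Palo stromal cells had an *Acan* or *Col2a1* UMI. Stromal cells numbered 2085, 1373 and 1184 with median depths of 9082, 17114 and 12955 UMIs. Because depth differed, shares of cells were compared after each cell was thinned to 3100 UMIs.

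*Sox9*, *Sox5* and *Sox6*, the chondrogenic trio, were all higher in stromal cells of Vehicle than in either other library. *Sox4* was lower there, and *Sox8* was scarce, with stromal and macrophage intervals that overlapped. The ratio of Palo over Matrigel-only was within 2-fold for every member. Its interval reached past 2-fold for *Sox6* (0.0107 to 12.2) and *Sox8* (0.568 to 2.27), so these 2 are not bounded. In Vehicle over Matrigel-only, 3 of the 6 members were past 2-fold, all higher, against 14.5% of the 10311 genes with a mean of at least 5 CPM (4.55% higher and 9.97% lower). In Vehicle over Palo, 3 of 6 were past it, all higher, against 12% of those genes (4.6% higher and 7.45% lower). In Palo over Matrigel-only 0 of 6 were past it, against 3.11% (0.863% higher and 2.25% lower). Median log2 ratios over the 6 members were 1.15 and 1.35 for the first 2 comparisons, where all genes had medians of -0.0442 and -0.0152. Of the members, *Sox9*, *Sox5*, *Sox6* and *Sox4* had a mean of 5 CPM or more. *Sox6* had it only through Vehicle, so among genes that pass it had to be higher there. *Sox8* and *Sox11* were below that mean, so the 6 members were not filtered as the 10311 genes were. The larger shares of all genes without this filter are given in the closing section. These shares describe the members and test nothing.

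**Figure D1:**
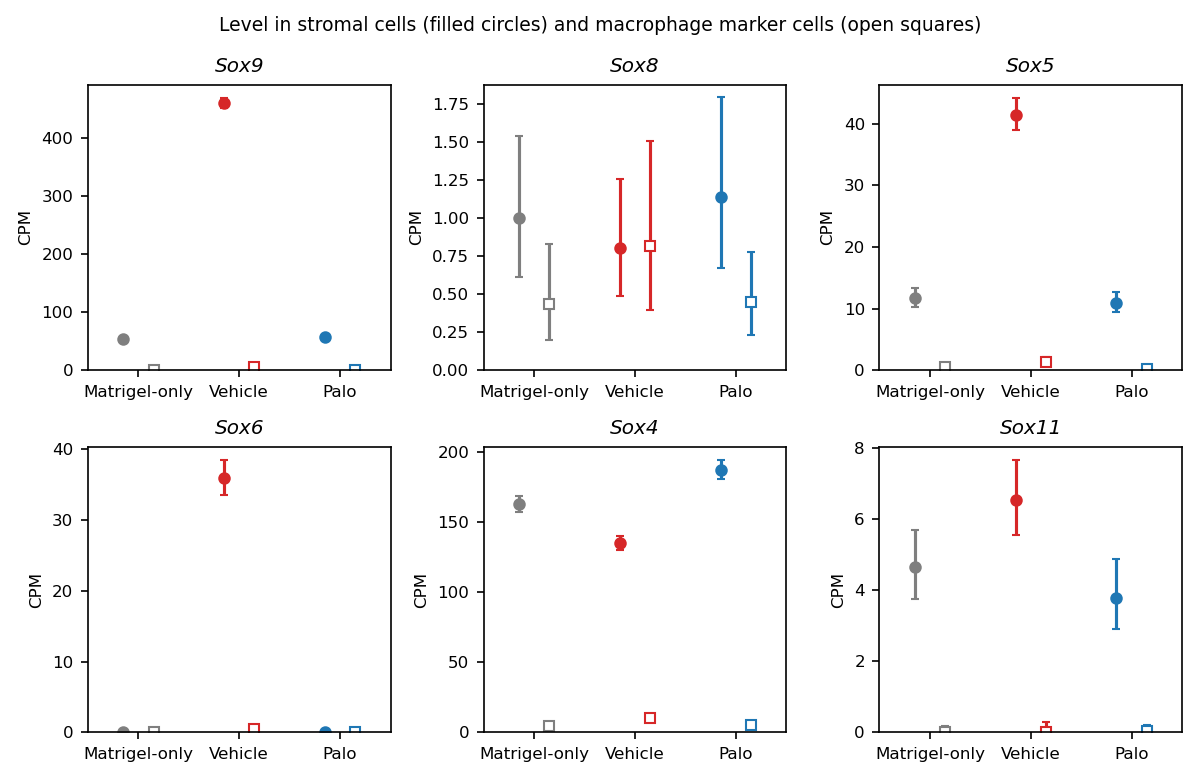
Level of each *Sox* gene in CPM, 1 panel per gene with its own linear axis from 0, in stromal cells (filled circles) and macrophage marker cells (open squares) of Matrigel-only, Vehicle and Palo, with exact 95% Poisson intervals for counting error. In stromal cells *Sox9*, *Sox5* and *Sox6* stand highest in Vehicle and *Sox4* stands lowest there. In macrophage marker cells *Sox4* is highest in Vehicle, at 9.98 CPM against 4.38 in Matrigel-only and 5.09 in Palo. The stromal and macrophage intervals of *Sox8* overlap in every library.

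*Sox9* was at 53.5 CPM in Matrigel-only (50.4 to 56.8, from 1073 UMIs), 461 CPM in Vehicle (452 to 469, from 10868 UMIs) and 57.3 CPM in Palo (53.6 to 61.1, from 907 UMIs). Vehicle stood far above the others, whose intervals overlapped. It was 8.61-fold above Matrigel-only (log2 ratio 3.11, 3.02 to 3.20) and 8.04-fold above Palo (3.01, 2.91 to 3.11), while Palo over Matrigel-only was 0.10 (-0.03 to 0.23). Stromal cells held 97.1 to 98.0% of each library's *Sox9* UMIs, and macrophage marker cells had 1.07, 5.48 and 0.186 CPM.

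The difference in *Sox9* was both in the share of cells and in the amount per cell. After thinning, at least 1 *Sox9* UMI was expected in 12.3, 55.8 and 13.7% of stromal cells, against 0.409, 1.56 and 0.0404% of macrophage marker cells, whose median depths before thinning were 2996.5, 3467 and 4193 UMIs. Macrophage marker cells under 3100 UMIs, most of those in Matrigel-only, were left out of the thinned shares. The unthinned stromal shares were 23.7, 79.7 and 34.5%. The thinned share was 42.1 percentage points higher in Vehicle than in Palo (38.7 to 45.4) and 1.37 points higher in Palo than in Matrigel-only (-1.08 to 3.92). Without thinning, the median stromal cell held 4 *Sox9* UMIs in Vehicle and 0 in the others. Cells with 5 or more made up 47.8% of Vehicle stroma, 2.11% of Matrigel-only and 3.38% of Palo, and the highest cell held 73, 15 and 20 UMIs. The 10% of cells with the most *Sox9* UMIs held 34.5% of them in Vehicle, 65.4% in Matrigel-only and 56.6% in Palo, with no correction for depth.

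*Sox8*, the other group E gene, had 20, 19 and 18 stromal UMIs, never more than 1 in a cell. Its level was 0.998, 0.805 and 1.14 CPM, and in macrophage marker cells 0.438, 0.818 and 0.446 CPM. The intervals of the stromal and macrophage shares overlapped in each library, at 0.360 and 0.185% in Matrigel-only, 0.223 and 0.248% in Vehicle and 0.407 and 0.160% in Palo after thinning. These few UMIs do not settle whether *Sox8* in stroma exceeds background. Its level was above that of macrophage marker cells in Matrigel-only and Palo, though the CPM intervals overlapped. The Vehicle over Matrigel-only log2 ratio of *Sox8* in stroma was -0.31 (-1.29 to 0.67).

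Of the group D genes, *Sox5* was at 11.8 CPM in Matrigel-only (10.3 to 13.4), 41.5 CPM in Vehicle (38.9 to 44.1) and 10.9 CPM in Palo (9.36 to 12.7), from 236, 978 and 173 UMIs. It was present in every library, and Matrigel-only and Palo overlapped. Vehicle was 3.52-fold above Matrigel-only (log2 ratio 1.82, 1.61 to 2.03) and 3.79-fold above Palo (1.92, 1.69 to 2.17). Thinned shares were 3.69, 11.5 and 3.28% of cells and unthinned shares 9.35, 38.6 and 12.3%.

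*Sox6* was close to absent outside Vehicle. It had 2 UMIs in Matrigel-only, both in 1 cell, 847 UMIs in Vehicle and 1 UMI in Palo, which gave 0.0998 CPM (0.012 to 0.360), 35.9 CPM (33.5 to 38.4) and 0.0632 CPM (0.002 to 0.352). The counting intervals of the ratios are accordingly wide, 360-fold (99.3 to 2977) for Vehicle over Matrigel-only and 568-fold (102 to 22478) for Vehicle over Palo. The thinned share in Vehicle was 8.89%, and 25.1% of cells had a *Sox6* UMI without thinning. The most in any cell was 11 UMIs for *Sox6* and 10 for *Sox5*, both in Vehicle. *Sox6os*, a gene on the opposite strand at the *Sox6* locus, had 15 UMIs in Vehicle stroma and 0 in the others.

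Among the group C genes *Sox4* ran the other way. Its level was 163 CPM in Matrigel-only (157 to 168), 135 CPM in Vehicle (130 to 140) and 187 CPM in Palo (180 to 194), from 3260, 3182 and 2962 UMIs. No interval overlapped another, so the order was Palo, Matrigel-only, Vehicle. The steps were small: Vehicle was 1.21-fold below Matrigel-only (log2 ratio -0.27, -0.34 to -0.20) and 1.39-fold below Palo (-0.47, -0.55 to -0.40), and Palo was 1.15-fold above Matrigel-only (0.20, 0.13 to 0.28). How far separate masses of 1 group differ is not known, and steps of this size have no replicate behind them. *Sox4* was found in 35.3, 32.0 and 40.7% of thinned stromal cells against 1.07, 2.77 and 1.37% of macrophage marker cells. The thinned share in Vehicle was below that in Palo by -8.73 points (-12.5 to -4.90), and Vehicle minus Matrigel-only was -3.31 points with an interval that reached 0 (-6.62 to 0.03). Without thinning the shares were 60.7, 74.4 and 76.2%, which would place Vehicle above Matrigel-only, so the direction of that difference depended on depth.

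*Sox11* was scarce, at 4.64 CPM in Matrigel-only (3.74 to 5.68), 6.53 CPM in Vehicle (5.54 to 7.64) and 3.79 CPM in Palo (2.89 to 4.88), from 93, 154 and 60 UMIs. The interval of Matrigel-only overlapped both others, while those of Vehicle and Palo were apart. Vehicle was 1.41-fold above Matrigel-only (log2 ratio 0.49, 0.11 to 0.88) and 1.72-fold above Palo (0.78, 0.35 to 1.24). In Vehicle, 7 cells with 5 or more UMIs held 58 of the 154, and the most in a cell was 20. Without those cells, an alternative chosen after seeing the data, Vehicle was at 4.10 CPM (3.32 to 5.01), slightly under Matrigel-only, with a log2 ratio of -0.18 (-0.60 to 0.25). The thinned share of cells with *Sox11* differed by 0.394 percentage points between Vehicle and Matrigel-only (-0.365 to 1.27). *Sox11* was almost absent from macrophage marker cells, with 0, 0 and 0.0371 CPM, and stromal cells held 100, 84.2 and 98.4% of its UMIs. The 29 Vehicle UMIs outside stroma lay in 6 cells that carried neither stromal nor macrophage nor T and NK markers at the limits used.

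**Figure D2:**
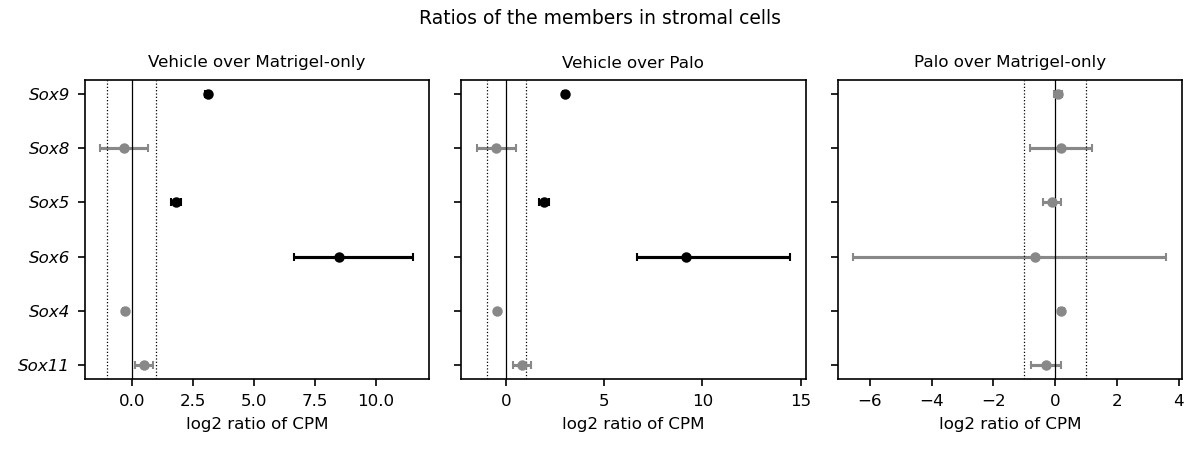
The log2 ratio of stromal CPM for each *Sox* gene in the 3 comparisons, with conditional exact 95% intervals for counting error, dotted lines at the 2-fold limits, and black points for members past 2-fold. In both comparisons with Vehicle, *Sox9*, *Sox5* and *Sox6* lie above 2-fold and the other members within it, while Palo over Matrigel-only shows no member past 2-fold and a wide interval for *Sox6*.

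Ratios between members within a library, which need no scaling to depth, moved in the same directions. For every 100 *Sox4* UMIs there were 32.9 *Sox9* UMIs in Matrigel-only (30.7 to 35.3), 342 in Vehicle (328 to 355) and 30.6 in Palo (28.4 to 33.0). *Sox5* did not keep pace with *Sox9*: its UMIs per 100 *Sox9* UMIs were 22.0 (19.0 to 25.3), 9.0 (8.42 to 9.61) and 19.1 (16.1 to 22.5). *Sox6* UMIs per 100 *Sox5* UMIs were 0.847, 86.6 (78.9 to 95) and 0.578. These compare a ratio across libraries and say nothing of which gene has more RNA, because gene length and capture differ.

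Within Vehicle the trio followed the cartilage matrix genes. Stromal cells were set in 4 ranges by the share of their UMIs from *Acan*, the cartilage proteoglycan core, and *Col2a1*, the type II collagen chain: none (502 cells), up to 0.1% (335), 0.1 to 1% (414) and 1% or more (122). Median depth was similar, 16204 to 18387 UMIs. These are ranges of a score and not cell types: 66 cells lay within 1.5-fold below the 0.1% limit and 68 within 1.5-fold above it. Cells at 0.1% or more numbered 536 and were found among stroma only in Vehicle.

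*Sox9* was at 210, 318, 707 and 998 CPM over the 4 ranges, each interval clear of the next, and its thinned share went from 35.6 to 88.0% of cells. *Sox5* was at 21.2, 30.6, 55.1 and 105 CPM. Both were close to 5-fold higher at 1% or more than with no matrix UMI, by 4.76-fold (4.46 to 5.08) for *Sox9* and 4.92-fold (4.01 to 6.05) for *Sox5*. *Sox6* had the steepest slope of the trio, at 2.62, 9.56, 65.2 and 141 CPM, which is 53.9-fold (34.6 to 88.5) from lowest to highest.

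The group C genes did not follow. *Sox4* was level over the first 3 ranges, at 140, 149 and 136 CPM, and lower at 69.0 CPM (58.2 to 81.3) in the cells richest in matrix, 2.03-fold below cells with no matrix UMI. *Sox11* went down over the ranges, at 11.6 CPM (9.37 to 14.2), 7.81 CPM (5.78 to 10.3), 1.66 CPM (0.859 to 2.9) and 0. The last, from 0 UMIs, allows up to 1.77 CPM by its exact interval and 1.44 CPM by the floor of 3 UMIs, by which it was at least 8.07-fold lower than in cells with no matrix UMI (6.44-fold by the lower end of the exact interval). The 536 cells at 0.1% or more had 39.4% of all Vehicle stromal UMIs but 90.4% of *Sox6*, 66.1% of *Sox9* and 63.0% of *Sox5*. The same cells had 35.3% of *Sox4* and 7.79% of *Sox11* (4.09 to 13.2).

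**Figure D3:**
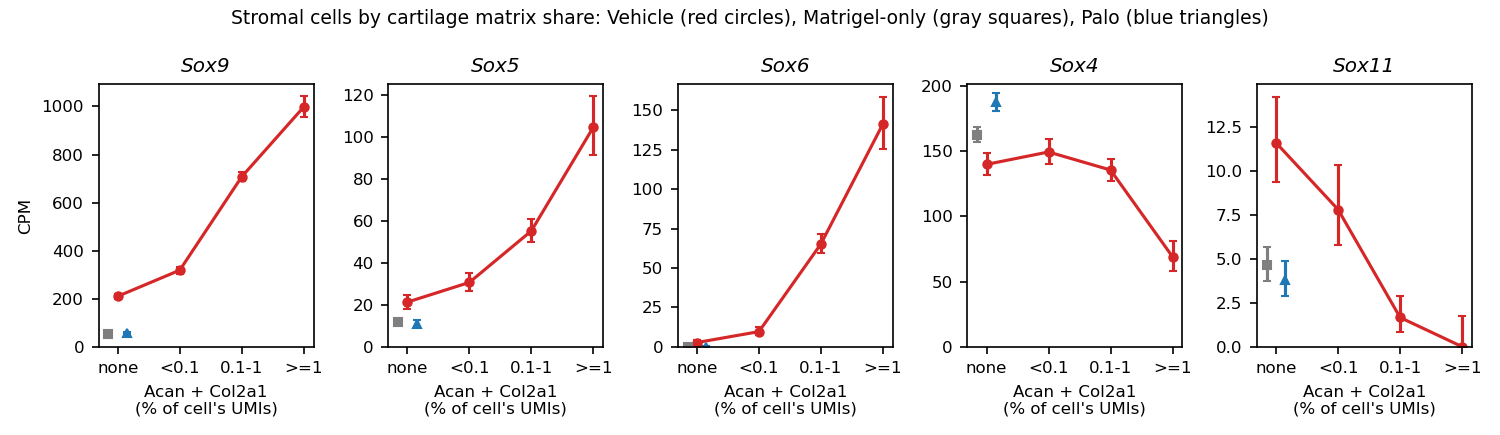
Stromal CPM of *Sox9*, *Sox5*, *Sox6*, *Sox4* and *Sox11* in Vehicle (red circles) by the share of a cell's UMIs from *Acan* and *Col2a1*, with exact 95% Poisson intervals, and in Matrigel-only (gray squares) and Palo (blue triangles) cells with no such UMI. *Sox9*, *Sox5* and *Sox6* go up with the matrix share, while *Sox4* is lower at 1% or more and *Sox11* goes down to 0 UMIs.

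Part of the Vehicle difference was present without matrix transcripts. Among stromal cells with no *Acan* or *Col2a1* UMI, *Sox9* was 3.92-fold higher in Vehicle than in Matrigel-only (3.63 to 4.24) and 3.66-fold higher than in Palo (3.37 to 3.97). *Sox5* was 1.80-fold (1.47 to 2.20) and 1.94-fold higher (1.56 to 2.42). Both figures were under the folds for all stroma, 8.61 and 3.52 against Matrigel-only. *Sox11* was 2.5-fold (1.86 to 3.37) higher than in Matrigel-only and 3.05-fold (2.18 to 4.29) higher than in Palo. Without the 5 of these cells that held 5 or more *Sox11* UMIs, the log2 ratios were 0.72 (0.22 to 1.20) and 1.0 (0.46 to 1.54), so these sizes rested in good part on a few cells. *Sox4* remained lower in Vehicle, by 1.16-fold and 1.34-fold. *Sox6* had 21 UMIs in these Vehicle cells, against 2 in Matrigel-only and 1 in Palo. *Sox8* had 1 UMI in them (0.125 CPM), against 20 in Matrigel-only (0.999 CPM) and 18 in Palo (1.14 CPM).

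The libraries also differed in how many stromal cells carried progenitor markers. Cells with under 0.1% matrix UMIs were set in 3 ranges by the share of UMIs from *Pi16*, *Clec3b*, *Dpp4*, *Cd34* and *Ly6a*, which mark fibroblast progenitors of connective tissue. Cells at 0.3% or more were 63.0% of Matrigel-only stroma (1313 cells), 9.76% of Vehicle (134 cells) and 32.3% of Palo (382 cells). *Sox9* was lowest in this range in every library. From under 0.1%, through 0.1 to 0.3%, to 0.3% or more, it was at 97.1, 89.1 and 23.4 CPM in Matrigel-only, 284, 289 and 59.8 CPM in Vehicle and 80.0, 60.7 and 21.0 CPM in Palo. Cells with the fewest progenitor marker UMIs were thus 4.15-fold (3.54 to 4.86), 4.75-fold (3.91 to 5.83) and 3.80-fold (3.02 to 4.83) above those with the most. As with the matrix share, these are ranges, and 183 Matrigel-only cells lay within 1.5-fold below the 0.3% limit and 219 within 1.5-fold above it.

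Within a progenitor range, and so without the cells at 0.1% or more matrix UMIs, *Sox9* in Vehicle was 2.93-fold, 3.25-fold and 2.56-fold above Matrigel-only and 3.55-fold, 4.77-fold and 2.85-fold above Palo. Leaving out every cell with a matrix UMI had already given 3.92-fold and 3.66-fold, against 8.61-fold and 8.04-fold over all stroma, and the value of 4.77-fold lay above that. Palo and Matrigel-only, which overlapped over all stroma, separated in 2 of 3 ranges: Palo was 1.21-fold lower (1.06 to 1.39) under 0.1% and 1.47-fold lower (1.27 to 1.70) at 0.1 to 0.3%. At 0.3% or more they overlapped (1.11-fold lower, 0.872 to 1.43). The near-equal *Sox9* of Palo and Matrigel-only stroma therefore stood beside an unequal make-up, with the range lowest in *Sox9* nearly 2 times as large a share of Matrigel-only cells as of Palo cells.

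*Sox5* had no such common pattern. In Matrigel-only it was higher in the cells with the most progenitor marker UMIs, 14.6 against 7.23 CPM, or 2.02-fold (1.36 to 3.09). In Vehicle it was higher in those with the fewest, 26.6 against 16.7 CPM, or 1.60-fold (1.09 to 2.43). In Palo it was 6.52, 16 and 10 CPM, with no steady direction. Palo and Matrigel-only, which overlapped over all stroma for *Sox5*, separated in opposite directions in the ranges richer in progenitor markers. Palo over Matrigel-only was 0.902 (0.544 to 1.51) under 0.1%, 1.81 (1.24 to 2.70) at 0.1 to 0.3% and 0.687 (0.477 to 0.969) at 0.3% or more. At 0.3% or more, Vehicle and Matrigel-only did not separate for *Sox5* (1.14-fold, 0.742 to 1.70), although *Sox9* differed by 2.56-fold (2.02 to 3.22) in the same cells.

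*Sox4* was lower where progenitor markers were high, by 1.24-fold in Matrigel-only, 1.85-fold in Vehicle and 1.33-fold in Palo. In each of the 3 ranges it was lower in Vehicle than in Matrigel-only or Palo, by 1.19-fold to 1.82-fold. *Sox11* in Vehicle was at 12.5 CPM (131 UMIs) in the range with the fewest progenitor marker UMIs, 5.22 CPM in the next and 0 of 134 cells had a UMI in the last, which allows up to 2.12 CPM by the exact interval and 1.73 CPM by the floor. In Matrigel-only it was 5.54, 6.83 and 3.43 CPM and in Palo 4.46, 4.64 and 1.67 CPM.

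**Figure D4:**
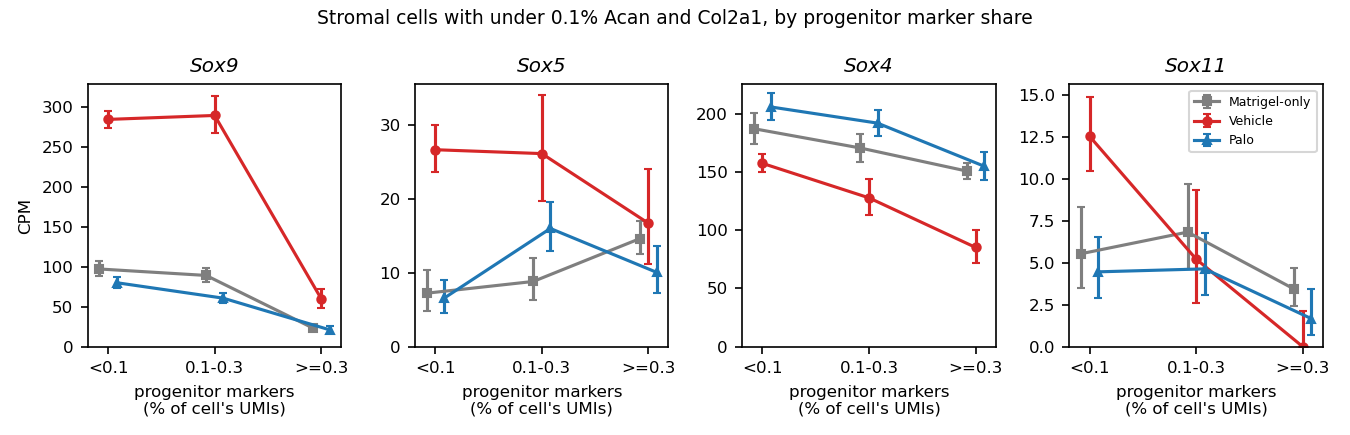
Stromal CPM of *Sox9*, *Sox5*, *Sox4* and *Sox11* in cells with under 0.1% of UMIs from *Acan* and *Col2a1*, by the share of UMIs from 5 progenitor markers and by library, with exact 95% Poisson intervals. *Sox9* is lowest at 0.3% or more in every library and highest in Vehicle in every range, and *Sox5* has no direction common to the libraries.

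Co-detection was read in Vehicle, where *Sox9* was found in most cells. Each value is the expected share of thinned cells with both genes, set beside the product of the genes' own shares. *Sox9* and *Sox5* were together in 8.00% of cells where the product was 6.39%, a ratio of 1.25, and *Sox9* and *Sox6* in 7.20% where it was 4.96%, a ratio of 1.45. *Sox5* and *Sox6* had a ratio of 1.85 (1.89% against 1.02%). No pair with *Sox9* could reach that value, because the ratio of such a pair cannot pass 1.79, so it is not ranked against them. *Sox4* joined *Sox9* about as often as the product gives, in 18.5% of cells (ratio 1.04). *Sox11* joined it less often, in 0.386% (ratio 0.495), which is few cells. *Sox8* and *Sox9* met in 0.131% of cells, too few to read.

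Seen from *Sox9*, thinned Vehicle cells with it had *Sox6* in 12.9% (10.6 to 15.6) and those without it in 3.82% (2.41 to 5.73). For *Sox5* the shares were 14.3% (11.9 to 17.1) and 7.81% (5.76 to 10.3). *Sox11* was found in 0.691% of cells with *Sox9* and 2.29% of cells without. These shares rest on few cells, and the 7 cells with 5 or more *Sox11* UMIs count heavily in them. Without thinning, the ratio of *Sox9* with *Sox11* was 0.853, so its size depended on depth. Of the expected *Sox6* cells, 81.0% also had *Sox9*. All 3 genes of the trio were found together in 1.59% of thinned Vehicle cells (0.983 to 2.43) and, without thinning, in 15.3% (13.4 to 17.3), against 0 cells of 2085 and 1184 in Matrigel-only and Palo.

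The ratio cannot pass 1 over the larger share, which is 1.79 for *Sox9* pairs over all stroma but 1.34 and 1.14 in the ranges rich in matrix, where most cells had *Sox9*. Between 0.1 and 1% of matrix UMIs, the ratio was 1.06 for *Sox9* with *Sox5* and 1.06 for *Sox9* with *Sox6*, and at 1% or more 1.01 and 1.0. At up to 0.1% the ratios were 1.11 and 1.38, with overlapping shares in cells with and without *Sox9*. Cells with no matrix UMI had a ratio of 1.30 for *Sox5*, with overlapping shares of 8.22 and 5.25% in cells with and without *Sox9*, and of 1.66 for *Sox6* on about 2 expected cells. Without thinning, *Sox6* was found in 5.02% of these cells with *Sox9* (2.89 to 8.02) and 0.546% without (0.0138 to 3.01). *Sox5* with *Sox6* was at 1.36 in the middle range and 0.981 in the highest. In Matrigel-only and Palo, *Sox9* and *Sox5* were together in 0.415 and 0.398% of cells, ratios of 0.912 and 0.888. Such few cells cannot show whether the 2 genes went together in these libraries. The *Sox9* with *Sox4* ratio there was 1.06 and 1.17.

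**Figure D5:**
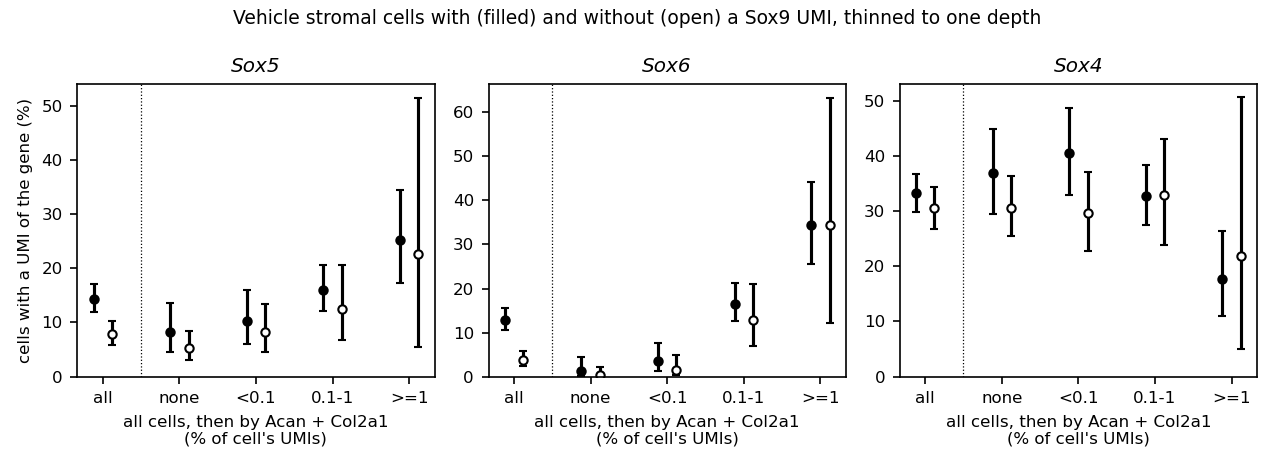
Expected percent of thinned Vehicle stromal cells with a UMI of *Sox5*, *Sox6* or *Sox4*, in cells with (filled) and without (open) a *Sox9* UMI, over all stroma and then within ranges of the *Acan* and *Col2a1* share, with exact 95% binomial intervals. Over all stroma the intervals of cells with and without *Sox9* are apart for *Sox5* and *Sox6*, and within each range they overlap.

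Vehicle stromal cells with a *Sox9* UMI (1094 cells) and without (279 cells) differed most in cartilage genes and in globins. The largest ratios towards cells with *Sox9* were *Snorc*, a chondrocyte proteoglycan, at 51.3 against 0 CPM, *Hapln1*, which links aggrecan to hyaluronan, at 154 against 1.84 CPM, *Col2a1* at 1884 against 32.3 CPM, *Col9a3* at 236 against 4.73 CPM and *Frzb*, a secreted WNT antagonist, at 114 against 3.16 CPM. Towards cells without *Sox9* they were *Hbb-bt*, *Hbb-bs* and *Hba-a1*, which encode hemoglobin chains of red cells, at 87.0, 463 and 265 CPM against 1.26, 11.6 and 7.58 CPM, and then *Akr1c18*, a hydroxysteroid dehydrogenase, at 57.6 against 3.28 CPM and *Igfbp5*, which binds insulin-like growth factors, at 349 against 22.4 CPM. Where the globin UMIs came from was not tested. Cells with *Sox9* were deeper, with a median of 17613 against 13437 UMIs. Between them, *Sox6* was at 42.0 and 4.21 CPM, *Sox5* at 45.4 and 20.8, *Sox4* at 140 and 111 and *Sox11* at 5.00 and 14.5 CPM. The *Sox11* values include the 7 cells with 5 or more of its UMIs, which held 58 UMIs. *Sox11* had the other direction in Matrigel-only, at 8.09 CPM with *Sox9* and 3.23 without (log2 ratio 1.32, 0.71 to 1.94), and was at 4.37 and 3.42 CPM in Palo. *Akr1c18* and *Igfbp5* also stood lower in the Matrigel-only cells with *Sox9*, at 50.4 against 217 CPM and 302 against 1593 CPM, where *Sox5* was at 10.7 and 12.2 CPM.

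Over 11 strata of stromal cells (library by matrix or progenitor range, each of at least 50 cells), the genes most like each member among 4357 were found by Pearson's r of log2(CPM + 5). Genes of at least 50 CPM in a stratum were compared, leaving out *Acan*, *Col2a1* and the progenitor markers, which form the strata. The strata share libraries, so r is a description. *Sox6* was at 65.2 and 141 CPM in the Vehicle strata at 0.1 to 1% and at 1% or more matrix UMIs. It was at 6.64 CPM or less in all others, so its r rested mostly on those matrix strata. *Sox6* was most like *Fzd9* (0.997), *Frzb* (0.996) and *Col9a2* (0.995), the last a type IX collagen chain of cartilage. *Sox9* was most like *Snd1* (0.992), *Pdap1* (0.986) and *Mif* (0.985), and *Sox5* like *Nol7* (0.966), *Gramd2* (0.964) and *Comp* (0.958). *Sox4* was most like *Coro1c* (0.955), *Marcksl1* (0.916) and *Tead1* (0.913), and *Sox11* like *Itga5* (0.915), *Armc1* (0.895) and *Hoxc6* (0.895). *Sox11* had only 307 UMIs over the strata, 131 of them in the Vehicle stratum with under 0.1% progenitor marker UMIs. Every r of *Sox11* therefore rested on few counts. Between members, r was 0.946 for *Sox5* and *Sox6*, 0.884 for *Sox9* and *Sox6*, 0.827 for *Sox9* and *Sox5* and 0.699 for *Sox4* and *Sox11*, and -0.732 for *Sox4* and *Sox5*.

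Several known cartilage targets of SOX9 were higher in Vehicle than in both other libraries, along with the trio, but not all were. The scarce *Chad* was at 0.0499, 1.27 and 2.15 CPM in Matrigel-only, Vehicle and Palo. *Epyc* was at 0.648, 0.424 and 0.0632 CPM, from 13, 10 and 1 UMIs. Its Vehicle over Matrigel-only log2 ratio had an interval of -1.96 to 0.69, which gives no direction. Of 21 listed, 15 had a mean of at least 5 CPM, but 11 of them reached it only through Vehicle and so had to be higher there, and no count over the 15 is read. The other 4 were at 5 CPM or more without Vehicle. *Col11a1*, a fibrillar collagen chain, was at 19.9, 958 and 61.8 CPM, *Col27a1*, another such chain, at 75.3, 193 and 96.7 CPM, *Matn4*, a matrilin, at 9.28, 169 and 9.22 CPM, and *Wwp2*, the host gene of a cartilage microRNA, at 25.5, 532 and 35.1 CPM. All 4 were past 2-fold higher in Vehicle than in Matrigel-only, and all but *Col27a1* than in Palo, where 4.55 and 4.6% of all genes tested were. Among the 11, type IX collagen *Col9a1* was at 0, 231 and 0 CPM, at least 1545-fold and 1220-fold higher in Vehicle by the floor of 3 UMIs (log2 ratios of 10.29 and 9.95 at the lower ends of the exact intervals). *Comp*, a matrix protein of cartilage and tendon, was at 0.499, 320 and 0 CPM, and *Col2a1* at 0.0499, 1586 and 0 CPM. Between Palo and Matrigel-only, *Col11a1* was the only target past 2-fold that was above 2 CPM in both. The others past it had 34 UMIs or fewer in each of these libraries, the most for *Chad*, with 1 UMI in Matrigel-only and 34 in Palo.

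Of 29 listed factors that act with or against SOX proteins in skeletal cells, 4 were at 0 and 19 passed the mean of 5 CPM. Of these, 3 passed only through Vehicle. Of the other 16, 4 were 2-fold or more higher and 4 lower in Vehicle than in Matrigel-only, where 4.55 and 9.97% of all genes tested were, and 3 were higher and 3 lower than in Palo, where 4.6 and 7.45% were. In Palo over Matrigel-only 0 of the 16 were past 2-fold, against 0.863 and 2.25%. Of the 16, the largest on the higher side was *Trps1*, at 18.3, 101 and 17.2 CPM. *Sp7*, the osteoblast factor osterix, was at 1.30, 102 and 1.58 CPM, and *Foxc1*, a forkhead factor, at 1.85, 28.7 and 2.46 CPM. Both passed only through Vehicle and so had to be higher there. On the lower side were *Barx2*, a homeobox factor, at 74.2, 14.4 and 43.6 CPM, and *Tcf7l2*, which carries WNT signals to DNA, at 57.6, 14.6 and 48.8 CPM. *Runx2*, needed for bone formation, was at 31.8, 82.6 and 49.6 CPM.

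Of the 4 genes linked to group C proteins, 3 passed the mean of 5 CPM, and 1 of them was past 2-fold higher in Vehicle against Matrigel-only and 2 against Palo, where 4.55 and 4.6% of all genes tested were. *Tubb3*, a neuronal tubulin, was at 32.7, 102 and 46.4 CPM and *Gdf5*, a joint growth factor, at 0, 5.68 and 0 CPM. *Sox12*, the remaining group C gene, was at 10.5, 19.0 and 9.28 CPM, past 2-fold against Palo only (2.05-fold). *Sox13*, the remaining group D gene, ran against *Sox5* and *Sox6* over all stroma, at 8.33, 2.20 and 6.82 CPM. There it was 3.78-fold lower in Vehicle than in Matrigel-only. By progenitor range, from fewest marker UMIs to most, that ratio was 1.59 (0.633 to 4.76), 0.404 (0.138 to 0.979) and 0.456 (0.204 to 0.893). The first of these did not show a lower level in Vehicle. *Sox18*, under the mean of 5 CPM, was at 1.75, 10.9 and 0.568 CPM. Of the 14 other family genes, 8 were at 0 in the stroma of all libraries.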

How the data were processed

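Masses were dissociated with dispase and sequenced on the 10x Chromium platform, 1 library per group. The authors deposited raw UMI counts per gene and barcode, and the submitters' processing notes name Cell Ranger 3.0.2, Seurat 3 and mm10, with the gene annotation not given in the sources used here. Library totals were 44252421, 46317250 and 46901673 UMIs for Matrigel-only, Vehicle and Palo, over 9249, 6065 and 7905 barcodes.

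Following the study's limits, cells with 200 to 6000 genes and at most 5% mitochondrial UMIs were kept. Stromal UMIs were summed per library (20049136, 23591212 and 15832240) and scaled to CPM. Intervals were exact Poisson for levels, exact binomial (Clopper-Pearson) for shares, conditional exact binomial for ratios and Newcombe for differences of shares. Detection in cells thinned to 3100 UMIs, the lowest of the libraries' 10th percentiles of stromal depth rounded down, was computed exactly from the hypergeometric formula. This left out 207, 70 and 54 shallower stromal cells. Shallower macrophage marker cells were left out too, so their thinned shares come from the deeper cells only. No barcode was shared by all libraries, and 1 stromal barcode of Matrigel-only was also stromal in Vehicle. No doublet caller was run. Instead, cells with *Ptprc* or macrophage markers were left out as an alternative. Macrophage marker cells (1% or more of UMIs) served as the background for free RNA.

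Named genes were the 6 members, the rest of the family, the extremes of fixed lists, the 3 genes most like each member and the 5 with the largest ratios by *Sox9* detection. *Snorc* was matched by gene identifier under an older symbol. The members, lists and ranges were chosen with earlier results of these data known. Ratios, thinning and co-detection were tested on simulated data. Python 3.11.15, numpy 2.4.6, scipy 1.17.1 and pandas 2.3.3 were used, with edgeR 4.0.16 for TMM factors as an alternative scaling of the counts. Other stromal limits, cell limits, thinning depths, pseudocounts and filters on low values were also tried.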

Additional observations from a re-analysis of the deposited data

Results flagged for a closer look

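Barcodes that the cell limits left out still held *Sox* UMIs above the Matrigel-only level measured the same way. Of these barcodes, 84, 204 and 59 had at least 1% stromal UMIs (Matrigel-only, then Vehicle, then Palo), and 15, 99 and 21 of them had more than 6000 genes. In the Vehicle ones *Sox9* was at 309 CPM (294 to 325), *Sox5* at 42.6 CPM (37.1 to 48.8), *Sox6* at 35.6 CPM (30.5 to 41.2) and *Sox4* at 133 CPM (123 to 144). The Matrigel-only ones had 49.2, 7.78, 2.59 and 94.6 CPM. In the Palo ones *Sox4* was at 187 CPM (160 to 217). No other sample-level rule applied with 1 library per group.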

How the results depend on the processing

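No paired analysis was possible because each group is 1 library, and for the same reason no replicate could be left out. Over the alternatives run, 62 summary values stayed near the reported one and 25 moved. Most of these are counts, shares of all genes or co-detection shares, which cannot reverse. The *Sox9* share difference of Vehicle minus Palo, which could, kept its sign throughout. Of the log2 ratios of single members, 150 stayed, 11 moved and 0 of those past 2-fold reversed. *Sox9*, *Sox5* and *Sox6* were past 2-fold in both comparisons with Vehicle under every alternative. Their log2 ranges against Matrigel-only were 2.99 to 3.17, 1.47 to 1.89 and 3.0 to 9.60, the last lowest with 5 CPM added. With mixed droplets left out, no *Sox6* UMI remained in Matrigel-only, so that setting has no finite ratio and is not in the *Sox6* range. With the level of macrophage marker cells subtracted, nothing was left of *Sox8* in Vehicle, so it counted as past 2-fold lower with no ratio to give. With cells of 5 or more *Sox11* UMIs left out, an alternative chosen after seeing the data, the *Sox11* log2 ratio changed sign against Matrigel-only, to -0.18, and was 0.11 against Palo. In Palo over Matrigel-only, 1 member (*Sox6*, near 0 in both libraries) passed 2-fold with a stromal limit of 0.5% or with mixed droplets left out. Without a filter beyond 1 UMI the share of all genes past 2-fold was 34.7%, 32.2% and 22.5% in the 3 comparisons, and with a mean of 1 CPM it was 5.66% in Palo over Matrigel-only.

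Shares followed depth by construction. The *Sox9* difference of Vehicle minus Palo was 25.9 points at 1000 UMIs, 45.7 at 5000 and 51.0 for 2 or more UMIs without thinning. At 1000 UMIs, 5000 UMIs, no thinning and 2 or more UMIs, *Sox9* in Vehicle was found with *Sox5* in 1.75, 13.4, 34.1 and 16% of cells, with *Sox6* in 1.65, 11.6, 24.3 and 14.1% and with *Sox4* in 4.03, 29.8, 61.9 and 38.0%. With *Sox11* it was 0.0603% at 1000 UMIs and 3.71% without thinning, and with *Sox8* 1.17% without thinning and 0% at 2 or more UMIs. Ratios to the product of shares ranged from 1.11 to 1.41 for *Sox5*, 1.22 to 1.66 for *Sox6*, 1.03 to 1.10 for *Sox4* and 0.393 to 0.853 for *Sox11*. Depth limits *Sox8*, *Sox11* and, outside Vehicle, *Sox6*.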
